A study of Mus musculus with 16 samples.

Results

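The chromatin of 39 imprinted genes outside the Meg3 and Peg13 loci was followed in mouse embryonic stem (ES) cells that lacked a subunit of one of the coactivator complexes ATAC and SAGA. Open chromatin was measured by ATAC-seq, an assay in which the transposase Tn5 inserts sequencing adaptors into accessible DNA, so that a peak of reads marks an open region. The ATAC complex shares its abbreviation with the assay but is unrelated to it. The members were all peaks of the deposited table whose first gene name was 1 of the 39 genes. They numbered 112 of 70150 peaks and belonged to 35 of the genes, while H19, Zrsr1, Nnat and Blcap were the first gene name of no peak. All 112 passed the filter on low counts, which kept 69692 peaks in all. Each peak was treated separately and is named by its gene and its distance in base pairs (bp) from the nearest annotated transcription start site, negative when upstream.

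There were 16 libraries, 4 of each genotype: AID-Zzz3, AID-Yeats2, Supt7l KO and WT. All were made from E14 cells, a mouse ES line in wide use. The ATAC complex contains both Zzz3 and Yeats2, which here carry the auxin-inducible degron (AID), a tag through which auxin leads to removal of the protein. Supt7l is a core subunit of SAGA and was knocked out. Auxin was given for 24 h to every line, WT included. All cells were grown on gelatine without feeder cells, in serum medium with leukaemia inhibitory factor and the inhibitors CHIR99021 and PD0325901. The genotype labels were not checked on these data. The degron acts on the protein, and no peak of Zzz3 or Yeats2 was called in any line. No peak had Supt7l as its first gene name, and peaks filed under neighbouring genes were not searched. Among all tested promoter peaks the lowest log2 change in Supt7l KO against WT was -9.38, and the place of that peak was not looked up. The series text mentions 2 independent clones and 2 days, but the labels tie no library to a clone or a day. They also do not say that libraries came from separate cultures, so that all p-values measure the spread between these libraries, which may be technical.

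Imprinted genes are expressed mainly or only from the allele of one parent. The choice is set by DNA methylation laid down in the egg or the sperm at differentially methylated regions, many of which are promoters of paternally expressed genes that are methylated on the maternal allele. The zinc finger protein ZFP57 binds the methylated form of the hexamer TGCCGC and keeps that methylation in place in early embryos and ES cells. ES cells are known to lose or change imprints in culture. The deposited counts pool the alleles, so a peak open on one allele in every cell and one open on both alleles in some cells cannot be told apart, nor can fewer open cells and less access per cell.

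The promoters of 5 members are shown, because the peaks over them either differed between the lines or spread most between libraries of one line. They are the bases just upstream of the RefSeq start site in GRCm38.p6, the build called mm10 in the submitters' processing notes, read 5′ to 3′ on the gene's strand. Capitals mark TGCCGC or its reverse complement GCGGCA. The Plagl1 sequence is chr10:13090582-13090831 on the plus strand, that of Nap1l5 is chr6:58907127-58907376 on the minus strand, and that of Mest is chr6:30737800-30738049 on the plus strand. The Peg3 sequence, chr7:6730420-6730582 on the minus strand, ends where Usp29 starts on the other strand, since the pair share a bidirectional promoter. The Inpp5f sequence is chr7:128611115-128611364 on the plus strand.
Plagl1: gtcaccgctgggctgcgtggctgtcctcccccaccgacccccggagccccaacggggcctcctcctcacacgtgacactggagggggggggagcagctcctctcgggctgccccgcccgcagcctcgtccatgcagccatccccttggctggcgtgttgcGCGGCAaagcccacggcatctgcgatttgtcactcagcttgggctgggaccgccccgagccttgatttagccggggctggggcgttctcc
Nap1l5: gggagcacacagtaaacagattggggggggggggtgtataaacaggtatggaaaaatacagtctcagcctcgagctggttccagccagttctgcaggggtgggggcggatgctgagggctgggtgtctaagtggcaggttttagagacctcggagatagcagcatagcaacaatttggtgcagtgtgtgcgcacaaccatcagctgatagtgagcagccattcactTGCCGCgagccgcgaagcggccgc
Mest: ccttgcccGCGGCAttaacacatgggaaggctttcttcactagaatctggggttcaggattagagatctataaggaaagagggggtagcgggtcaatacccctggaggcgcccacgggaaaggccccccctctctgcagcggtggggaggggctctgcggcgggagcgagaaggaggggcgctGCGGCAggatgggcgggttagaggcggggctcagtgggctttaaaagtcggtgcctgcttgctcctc
Peg3: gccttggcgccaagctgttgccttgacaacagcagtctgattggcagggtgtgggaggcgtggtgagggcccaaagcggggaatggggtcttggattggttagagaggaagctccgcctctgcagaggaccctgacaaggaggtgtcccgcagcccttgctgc
Inpp5f: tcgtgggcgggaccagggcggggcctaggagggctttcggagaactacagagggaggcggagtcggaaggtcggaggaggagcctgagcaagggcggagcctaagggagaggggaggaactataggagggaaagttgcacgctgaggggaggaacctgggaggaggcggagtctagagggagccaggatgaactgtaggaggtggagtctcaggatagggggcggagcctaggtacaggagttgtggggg
The hexamer was present 1 time in the Plagl1 sequence, 1 time in that of Nap1l5 and 2 times in that of Mest, and these letters were not in the windows of Peg3 and Inpp5f.

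RefSeq promoter windows of 300 bases (250 before to 50 after the start) were found for 33 of the 39 genes, 49 windows in all. TGCCGC, searched on both strands, stood in 12 of the 49 (24.5%), against 11.6% of all 32851 windows. The member windows also held more CG dinucleotides, with a median of 17 against 7 over all windows. Among the 33 member windows that lay under a member peak, 10 (30.3%) held TGCCGC. They included 6 of the 16 windows of paternally expressed genes and 3 of the 10 windows of maternally expressed genes. Windows that overlap were counted separately in all these numbers. Among them were 2 windows of Mest, from chr6:30737800 and chr6:30737803, which both hold TGCCGC, and those of Peg3 and Usp29, which do not. The motif AAGATGGC of the zinc finger protein YY1, which is known to bind within the Peg3 locus, stood in 1 member window (2.04%), that of Ube3a, against 2.75% of all windows. A match says only that these letters are present.

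A larger share of the members than of all peaks lay at promoters and on chromosome 7. Of the 112 peaks, 47 (42.0%) lay within 1000 bp of a start site, against 26.9% of all peaks, and 11 (9.82%) were intergenic, against 32.8%. Chromosome 7, which carries the Peg3, Snrpn, Inpp5f and Kcnq1ot1 loci, held 39 (34.8%), against 6.27% of all peaks. Levels are given in CPM, the reads of a peak scaled to the reads of its library in all peaks with edgeR's TMM factors. The median level of a member peak was 13.2 CPM, against 9.68 CPM over all tested peaks. Member peaks were wider, with a median of 825 bp against 706 bp, and levels were not divided by width, so no order of levels between genes is given. Library totals were 2492045 to 5540559 reads in peaks, at which 3 reads correspond to 0.54 to 1.19 CPM.

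The cells carried the open promoters of ES cells. Of 10 ES markers, 9 had a promoter peak (Dppa3 had none), and their summed level was 349 to 394 CPM in AID-Zzz3, 367 to 396 CPM in AID-Yeats2, 408 to 448 CPM in Supt7l KO and 353 to 402 CPM in WT libraries. Of 10 fibroblast and feeder markers, 5 had a promoter peak, with none at Col3a1, Lum, Postn, Prrx1 and Thy1. Their summed level was 80.7 to 101 CPM in AID-Zzz3, 80.2 to 96.7 CPM in AID-Yeats2, 76.3 to 84.1 CPM in Supt7l KO and 86.5 to 92.7 CPM in WT libraries. Promoter peaks also stood at 5 of 6 primitive endoderm markers (none at Gata4) and 5 of 6 trophoblast markers (none at Krt8), and the part of other cell types in the results was not tested.

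**Figure D1:**
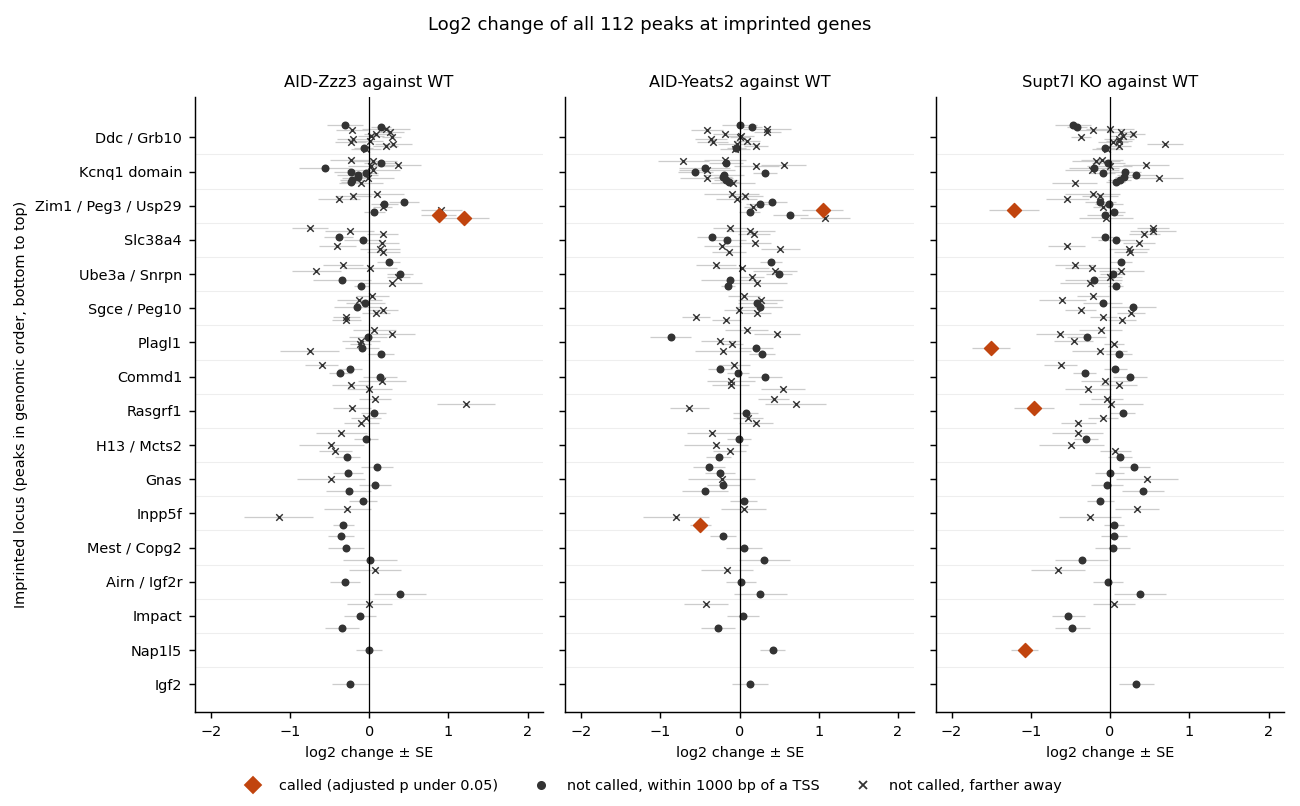
Log2 change (x axis) of each of the 112 member peaks, by imprinted locus (rows), in AID-Zzz3, AID-Yeats2 and Supt7l KO cells against WT, with bars for 1 standard error; dots are peaks within 1000 bp of a start site, crosses are farther peaks, and red diamonds are called peaks. Most peaks lie near 0 in all 3 comparisons, and the 4 called peaks of Supt7l KO cells all lie below 0.

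Supt7l KO cells had lost accessibility at 4 member peaks and gained it at none. All 4 belonged to paternally expressed genes: the promoters of Plagl1, a zinc finger transcription factor that restrains cell growth, and Nap1l5, a relative of nucleosome assembly proteins, and single distal peaks of Peg3 and Rasgrf1. A peak was called when edgeR's quasi-likelihood test over all 69692 peaks gave a Benjamini-Hochberg adjusted p under 0.05. By this rule 3.57% of the members were called, against 1.09% of all tested peaks, and 0.745% of all were called lower. The median log2 change was -0.03 over the members and 0.01 over all tested peaks. At an unadjusted p under 0.05, 16 members were lower and 4 higher, 20 of 112, beside 8624 of all 69692 tested peaks. The totals of all peaks at this threshold, here and below, were not split by direction. Lower calls were the more frequent over all tested peaks too, with 519 called lower and 238 higher.

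The Plagl1 promoter (ENSMUSG00000019817; peak at +14, chr10:13090269-13091507) measured 6.38, 10.7, 16.3 and 12.7 CPM in Supt7l KO libraries 1 to 4, against 21.8, 48.3, 39.4 and 19.4 CPM in WT libraries. Every knockout library lay below every WT library, although the WT libraries themselves spread widely. The means were 11.5 ± 4.14 CPM in Supt7l KO and 32.2 ± 14.0 CPM in WT (SD, n = 4 each), and the log2 change was -1.51 ± 0.24 (SE; adjusted p = 5.95e-05), or 2.84-fold lower. The change was -2.0 with libraries 1 and 2 of each line alone and -1.04 with libraries 3 and 4 alone. DESeq2 gave an adjusted p of 0.0505, and the authors' deposited table gave -1.51 with an adjusted p of 0.0427. Plagl1 is transcribed from more than one promoter, and the imprinted one is the peak at +14, which also covers the start of the imprinted RNA Hymai. The upstream CpG island promoter at +595 measured 24.9 ± 6.69 CPM in Supt7l KO and 22.8 ± 3.42 CPM in WT (log2 change 0.11, adjusted p = 0.833). The other 6 Plagl1 peaks had log2 changes between -0.63 and 0.05, none of them called. Over the 107 peaks of other genes within 2 Mb of Plagl1 the median log2 change was -0.09.

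Nap1l5 is an intronless gene inside an intron of Herc3, and its only peak (+21, chr6:58906430-58907681) covers its promoter. It measured 13.5, 12.6, 14.5 and 14.9 CPM in Supt7l KO libraries, against 19.4, 33.3, 37.6 and 26.3 CPM in WT libraries. The knockout libraries lay close together and all below the lowest WT library. The means were 13.9 ± 1.03 CPM in Supt7l KO and 29.1 ± 8.01 CPM in WT (SD, n = 4 each), a log2 change of -1.08 ± 0.17 (SE; adjusted p = 5.99e-05), or 2.11-fold lower. The change was -1.0 with libraries 1 and 2 alone and -1.13 with libraries 3 and 4 alone. Over the 55 peaks of other genes within 2 Mb the median log2 change was -0.13.

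Peg3 encodes a large zinc finger protein whose loss alters growth and maternal behaviour in mice. Its peak at +12064 (ENSMUSG00000002265; chr7:6710670-6711633), annotated to the end of a shorter Peg3 transcript, held few reads, between 8 and 13 in the knockout libraries. It measured 1.96, 2.73, 2.77 and 2.49 CPM in Supt7l KO libraries, against 5.03, 5.09, 7.38 and 5.50 CPM in WT libraries, with no overlap between the lines. The log2 change was -1.21 ± 0.32 (SE; adjusted p = 0.0344). The promoter peak of the gene at +66 measured 17.6 ± 6.37 CPM in Supt7l KO and 19 ± 2.50 CPM in WT (log2 change -0.12, adjusted p = 0.857). The peak at +2295 in an intron of a shorter Peg3 transcript, the most accessible of the 4 Peg3 peaks, measured 104 ± 10.7 CPM in Supt7l KO and 111 ± 11.7 CPM in WT (-0.10, adjusted p = 0.803).

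Rasgrf1, an exchange factor that activates Ras proteins, had 6 peaks. The one at +11412 (chr9:89921011-89921638) measured 5.64, 4.20, 5.54 and 8.01 CPM in Supt7l KO libraries, against 9.87, 12.7, 11.5 and 11 CPM in WT libraries. The lines did not overlap, and the log2 change was -0.96 ± 0.25 (SE; adjusted p = 0.0383). The promoter peak at -129 measured 34.2 ± 7.25 CPM in Supt7l KO and 30.6 ± 6.05 CPM in WT (0.16, adjusted p = 0.738). The calls at Peg3 and Rasgrf1 were each lost when single libraries were left out: at Peg3 any of the 4 Supt7l KO libraries or WT 2 or 3, and at Rasgrf1 Supt7l KO 1, 2 or 3 or WT 2, 3 or 4, with adjusted p-values from 0.0304 to 0.197 and from 0.0304 to 0.160. The calls at Plagl1 and Nap1l5 held without any single library.

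Just outside the threshold, the Grb10 peak in a CpG island at +148 had a log2 change of -0.42 (adjusted p = 0.0844) in Supt7l KO cells. No member peak was called higher by edgeR or by DESeq2, and 4 were higher at an unadjusted p under 0.05. The smallest p-values among higher peaks belonged to Ddc at -8502 (log2 change 0.70, adjusted p = 0.121), Slc38a4 at -29758 (0.54, adjusted p = 0.212) and Slc38a4 at -3856 (0.43, adjusted p = 0.339). Ddc makes the decarboxylase for dopamine and serotonin synthesis and lies next to Grb10, and Slc38a4 is an amino acid transporter.

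**Figure D2:**
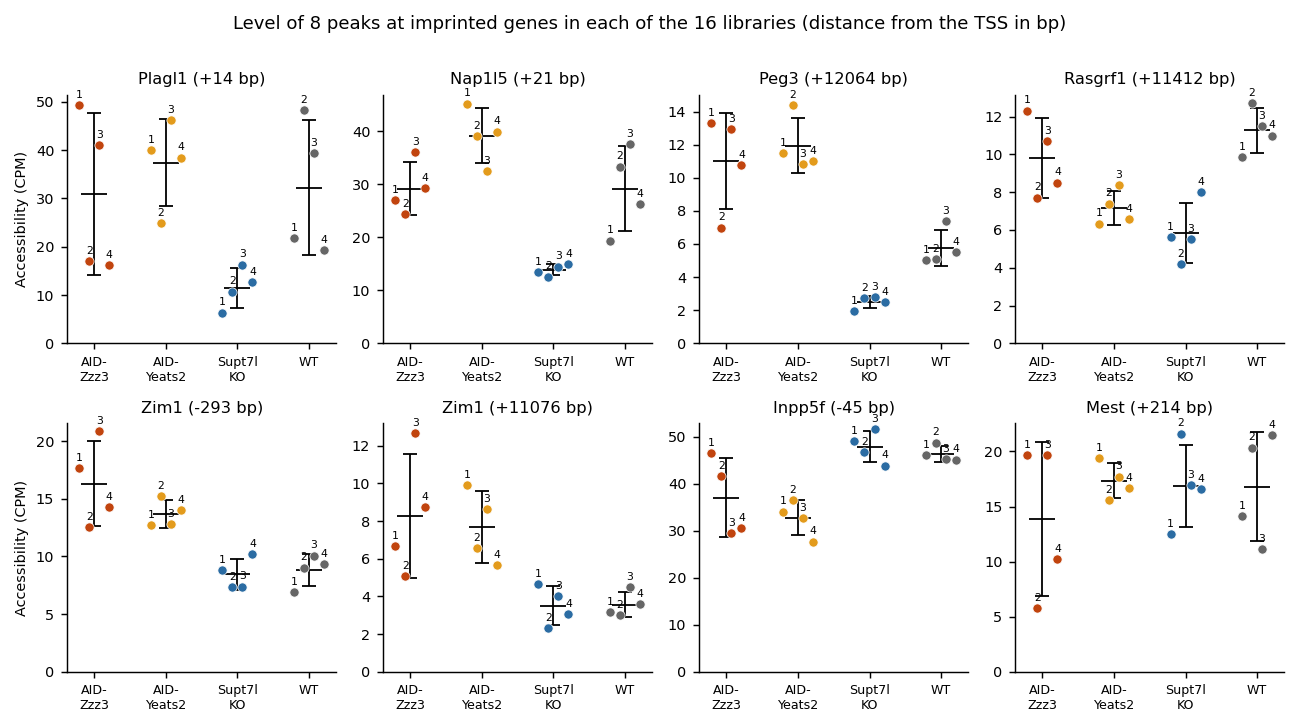
Level in CPM (y axis) of 8 member peaks in each library of AID-Zzz3, AID-Yeats2, Supt7l KO and WT cells; points carry the library number and bars give the mean and SD of 4 libraries. The Supt7l KO points lie below all WT points for Plagl1 +14 (6.38 to 16.3 CPM) and Nap1l5 +21 (12.6 to 14.9 CPM), and AID-Zzz3 libraries 1 and 3 lie above 2 and 4 for Plagl1 +14 and Mest +214.

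AID-Zzz3 cells had gained accessibility at 2 member peaks, both of Zim1, and lost it at none. Zim1 is a maternally expressed zinc finger gene that neighbours Peg3. The 2 calls were 1.79% of the members, against 0.98% of all tested peaks (0.634% higher and 0.346% lower). The median log2 change was -0.05 over the members and -0.01 over all tested peaks. At an unadjusted p under 0.05, 8 members were higher and 10 lower, 18 of 112, beside 9960 of all 69692 tested peaks. DESeq2 called 3 members higher and 0 lower.

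The Zim1 peak at -293 (chr7:6688480-6689451), at the start of a shorter Zim1 transcript, measured 17.6, 12.5, 20.8 and 14.3 CPM in AID-Zzz3 libraries, against 6.89, 9.02, 10.1 and 9.32 CPM in WT libraries. The lowest AID-Zzz3 library lay above the highest WT library. The means were 16.3 ± 3.68 CPM in AID-Zzz3 and 8.83 ± 1.36 CPM in WT (SD, n = 4 each), a log2 change of 0.88 ± 0.22 (SE; adjusted p = 0.0265), or 1.84-fold higher. The peak at +11076 (chr7:6677183-6678009), in exon 8 of 8, measured 6.66, 5.06, 12.7 and 8.75 CPM in AID-Zzz3 libraries, against 3.17, 3.01, 4.50 and 3.58 CPM in WT libraries. Here too no AID-Zzz3 library fell within the WT range, and the log2 change was 1.2 ± 0.31 (SE; adjusted p = 0.0332), or 2.30-fold higher. The promoter of the full-length transcript at +7 (chr7:6695993-6696893) stood at 37.9 ± 6.32 CPM in AID-Zzz3 and 36.1 ± 3.92 CPM in WT, a log2 change of 0.07 (95% interval -0.19 to 0.33). The call at -293 was lost without AID-Zzz3 1 or 3 or without WT 1, 2 or 4 (adjusted p from 0.0153 to 0.169 over single libraries left out). That at +11076 was lost without AID-Zzz3 3 or 4 or without WT 1, 2 or 4 (0.0139 to 0.241).

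The Peg3 peak at +12064 lay just above the threshold in AID-Zzz3 cells, with 13.3, 6.99, 12.9 and 10.8 CPM in AID-Zzz3 libraries (log2 change 0.91 ± 0.26 SE, adjusted p = 0.0608). The lowest of these lay below the highest WT library, at 7.38 CPM. The authors' deposited table, whose name holds the words batch and day, lists it at 0.92 with an adjusted p of 0.0402. The main fit here held no batch term. Over the 113 peaks of other genes within 2 Mb of Peg3 the median log2 change was 0.07. Next in order of p came Rasgrf1 at +30814, with 5.70 ± 1.03 CPM in AID-Zzz3 and 2.48 ± 1.05 CPM in WT (1.22, adjusted p = 0.0800), Slc38a4 at -29758 (-0.75, adjusted p = 0.0832), Commd1 at -3354 (-0.60, adjusted p = 0.149) and Inpp5f at +4457 (-1.14, adjusted p = 0.190).

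AID-Yeats2 cells had gained accessibility at the distal Peg3 peak and lost it at the promoter of Inpp5f, a phosphoinositide phosphatase gene. The 2 calls were 1.79% of the members, against 0.822% of all tested peaks (0.524% higher and 0.298% lower). The median log2 change was -0.02 over the members and -0.00 over all tested peaks. At an unadjusted p under 0.05, 11 members were higher and 7 lower, 18 of 112, beside 9357 of all 69692 tested peaks.

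The Peg3 peak at +12064 measured 11.5, 14.4, 10.8 and 11 CPM in AID-Yeats2 libraries, all above the 5.03 to 7.38 CPM of WT. The means were 11.9 ± 1.65 CPM in AID-Yeats2 and 5.75 ± 1.11 CPM in WT (SD, n = 4 each), and the log2 change was 1.05 ± 0.26 (SE; adjusted p = 0.0271). The call was lost without AID-Yeats2 2 or 4 or without WT 1, 2 or 4 (adjusted p from 0.0241 to 0.130), and under loess scaling (adjusted p = 0.0511). At Zim1 the changes in AID-Yeats2 were 1.08 ± 0.31 at +11076 (adjusted p = 0.0701), 0.64 ± 0.22 at -293 (adjusted p = 0.153) and 0.13 at +7 (adjusted p = 0.733). The WT libraries enter all 3 comparisons, so these values and those of AID-Zzz3 are not independent.

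At Inpp5f the loss concerned the biallelic promoter at -45 (chr7:128610719-128611847), with 34.1, 36.5, 32.7 and 27.7 CPM in AID-Yeats2 libraries, against 46.2, 48.8, 45.3 and 45.2 CPM in WT libraries. The log2 change was -0.50 ± 0.13 (SE; adjusted p = 0.0462), and the call was lost without any one of these 8 libraries (adjusted p up to 0.172). The internal promoter in a CpG island at -220, where a paternally expressed Inpp5f transcript starts, stood at 21.7 ± 1.42 CPM in AID-Yeats2 and 21.1 ± 5.10 CPM in WT (0.05, adjusted p = 0.937). Over the 189 peaks of other genes within 2 Mb, the median log2 change was -0.17. Peaks named but not called in AID-Yeats2 cells were Plagl1 at +969 (-0.87, adjusted p = 0.0814), Sgce at +26625 (-0.55, adjusted p = 0.100), Magel2 at +177 (0.50, adjusted p = 0.112) and Nap1l5 at +21 (0.42, adjusted p = 0.195).

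The 2 ATAC lines together were then set against Supt7l KO cells, a comparison that does not use the WT levels. It asks where these lines differed. They differ in the complex affected and also in how the subunit was removed, by an auxin degron or by knockout. The 2 cannot be separated in these libraries, and the part of each was not tested. The mean of AID-Zzz3 and AID-Yeats2 was higher at 11 member peaks and lower at 8. These were 17% of the members, against 17.6% of all tested peaks (8.57% higher, 8.98% lower), so the share of members was near that of all peaks. The split of the calls was 15 higher and 6 lower when libraries were scaled by their totals alone, and 15 higher and 7 lower with loess scaling. Over all tested peaks, totals alone gave 7379 higher of 11458 called (16.4% called), and loess scaling 4805 higher of 8492 called (12.2% called). The median log2 difference was 0.01 over the members and -0.00 over all tested peaks. At an unadjusted p under 0.05, 19 members were higher and 21 lower, 40 of 112, beside 21431 of all 69692 tested peaks.

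The 3 member peaks with the smallest p-values were higher in the ATAC lines and belonged to paternally expressed genes. Nap1l5 at +21 measured 27.0, 24.3, 36.0 and 29.3 CPM in AID-Zzz3 and 45.2, 39, 32.5 and 39.9 CPM in AID-Yeats2, all above the 12.6 to 14.9 CPM of Supt7l KO. The log2 difference was 1.28 ± 0.16 (SE; adjusted p = 3.05e-09), or 2.44-fold. The Peg3 peak at +12064 did not overlap between the ATAC lines, at 6.99 to 14.4 CPM, and Supt7l KO, at 1.96 to 2.77 CPM. Its difference of 2.19 ± 0.27 (adjusted p = 7.16e-09), or 4.56-fold, is made up of a higher level in the ATAC lines and a lower one in Supt7l KO cells than in WT. The Plagl1 promoter at +14 measured 49.3, 17.1, 41.1 and 16.3 CPM in AID-Zzz3 and 40.02, 24.8, 46.3 and 38.4 CPM in AID-Yeats2, and its difference from Supt7l KO was 1.56 ± 0.22 (adjusted p = 1.95e-07), or 2.96-fold. Here the lines overlapped, since AID-Zzz3 library 4 and Supt7l KO library 3 both stood at 16.3 CPM.

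Among peaks near other members, Grb10 had 2 within 1000 bp of an annotated start site. That at +148 (chr11:12025534-12026819), in exon 1 of an annotated transcript, was higher in the ATAC lines, and no RefSeq promoter window lay under it. The Grb10 peak at -171, under which a RefSeq promoter window lay, was not called in this comparison. Grb10 is an adaptor that restrains insulin and growth factor signalling, expressed from the maternal allele in most tissues and from the paternal one in neurons. The peak at +148 stood at 57.3 ± 8.89 CPM in AID-Zzz3 and 58 ± 7.48 CPM in AID-Yeats2, against 38.6 ± 2.73 CPM in Supt7l KO. The difference was 0.57 ± 0.11 (adjusted p = 1.69e-04). The intergenic peak at -6930 of Ddc, the neighbour of Grb10, was also higher. It stood at 51.9 ± 2.83 CPM in AID-Zzz3 and 43 ± 2.58 CPM in AID-Yeats2, against 33.2 ± 2.76 CPM in Supt7l KO (0.51, adjusted p = 6.71e-04). Both Zim1 peaks called in AID-Zzz3 cells differed from Supt7l KO as well, by 1.19 at +11076 (adjusted p = 0.00209) and 0.82 at -293 (adjusted p = 0.00231). The remaining peaks higher in the ATAC lines were Plagl1 at +9810 (1.01, adjusted p = 0.00644), Rasgrf1 at +30814 (0.95, adjusted p = 0.0415), Peg3 at +66 (0.55, adjusted p = 0.0203) and Magel2 at +177 (0.41, adjusted p = 0.0332). Magel2 encodes a regulator of protein ubiquitination within the Snrpn cluster, the mouse counterpart of the Prader-Willi region. The count is completed by Nap1l5, Peg3 and Plagl1 above.

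Of the 8 peaks lower in the ATAC lines, Slc38a4 at -29758 (chr15:97085111-97086318) had the smallest p. It measured 6.66, 10.1, 6.47 and 7.75 CPM in AID-Zzz3 and 11.9, 12.5, 14.5 and 9.24 CPM in AID-Yeats2, against 18.4, 19.7, 19.1 and 19.6 CPM in Supt7l KO. All 8 ATAC libraries lay below the knockout libraries, and the difference was -0.98 ± 0.18 (SE; adjusted p = 7.51e-05). The WT libraries, at 15.8, 8.79, 12.1 and 16 CPM, lay below the knockout libraries too and overlapped both ATAC lines. Inpp5f at -45 differed by -0.46 (adjusted p = 0.00276). Tssc4 at -92, the promoter of a splicing factor gene, differed by -0.35 (adjusted p = 0.00764). Gnas at -41, near the start sites of a locus that encodes the G protein subunit Gs alpha, differed by -0.76 (adjusted p = 0.0189). Cdkn1c at +192, the promoter of a cell cycle inhibitor gene, differed by -0.58 (adjusted p = 0.0214). The last 3 were Cd81 at -1858 (-0.83, adjusted p = 0.0250), H13 at +293, the promoter of the signal peptide peptidase gene (-0.39, adjusted p = 0.0329), and Ddc at -8502 (-0.56, adjusted p = 0.0367).

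Neighbouring peaks of other genes were shifted between the ATAC lines and Supt7l KO as well. Within 2 Mb their median log2 difference was 0.33 at Nap1l5, 0.16 at Plagl1, 0.01 at Peg3, 0.20 at Grb10, 0.20 at Rasgrf1 and 0.19 at the Snrpn locus. It was -0.25 at the Kcnq1ot1 locus, which holds Tssc4, Cdkn1c and Cd81, -0.26 at Gnas, -0.24 at Inpp5f, -0.15 at H13 and -0.10 at Slc38a4. The part of these shifts in the members' differences was not tested.

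Without any single library, the calls against Supt7l KO held at Nap1l5, Peg3 +12064, Plagl1 +14, Grb10, Ddc -6930, Slc38a4, both Zim1 peaks, Inpp5f and Tssc4. Those of Plagl1 +9810 and Gnas were lost without Supt7l KO 2, that of Gnas also without Supt7l KO 3, and that of Cd81 without Supt7l KO 1, 2 or 3. The Cdkn1c call was lost without AID-Zzz3 3, AID-Yeats2 3 or Supt7l KO 2 or 3. Peg3 +66 was lost without AID-Zzz3 1 or 3 or Supt7l KO 1 or 2, and H13 without AID-Zzz3 3, AID-Yeats2 4 or Supt7l KO 1, 2 or 4. Rasgrf1 +30814 was lost without AID-Zzz3 2, AID-Yeats2 1 or 4 or Supt7l KO 1, 3 or 4. Magel2 was lost without AID-Zzz3 3 or 4 or Supt7l KO 4, at 0.27 (adjusted p = 0.220) without the last. Ddc -8502 was lost without AID-Zzz3 1 or 4, AID-Yeats2 1 or 2 or Supt7l KO 1, 3 or 4, at -0.34 (adjusted p = 0.293) without Supt7l KO 3.

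The scaling of the libraries also bore on these calls. Loess scaling gave -0.11 at Tssc4 (adjusted p = 0.482), -0.27 at H13 (adjusted p = 0.191), -0.27 at Inpp5f -45 (adjusted p = 0.102) and 0.74 at Rasgrf1 +30814 (adjusted p = 0.146), so that all 4 calls were lost. With library totals alone the calls at H13 (adjusted p = 0.0834) and Ddc -8502 (adjusted p = 0.0710) were lost. At Peg3 +66 the difference was 0.93 in libraries 1 and 2 alone and 0.21 in 3 and 4 alone (adjusted p = 0.576). Libraries 1 and 2 alone gave -0.14 at Tssc4, -0.28 at Inpp5f -45, -0.30 at Cdkn1c, -0.35 at Ddc -8502 and 0.21 at Magel2, and libraries 3 and 4 alone gave -0.54 at Cd81, with no call at any of these.

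**Figure D3:**
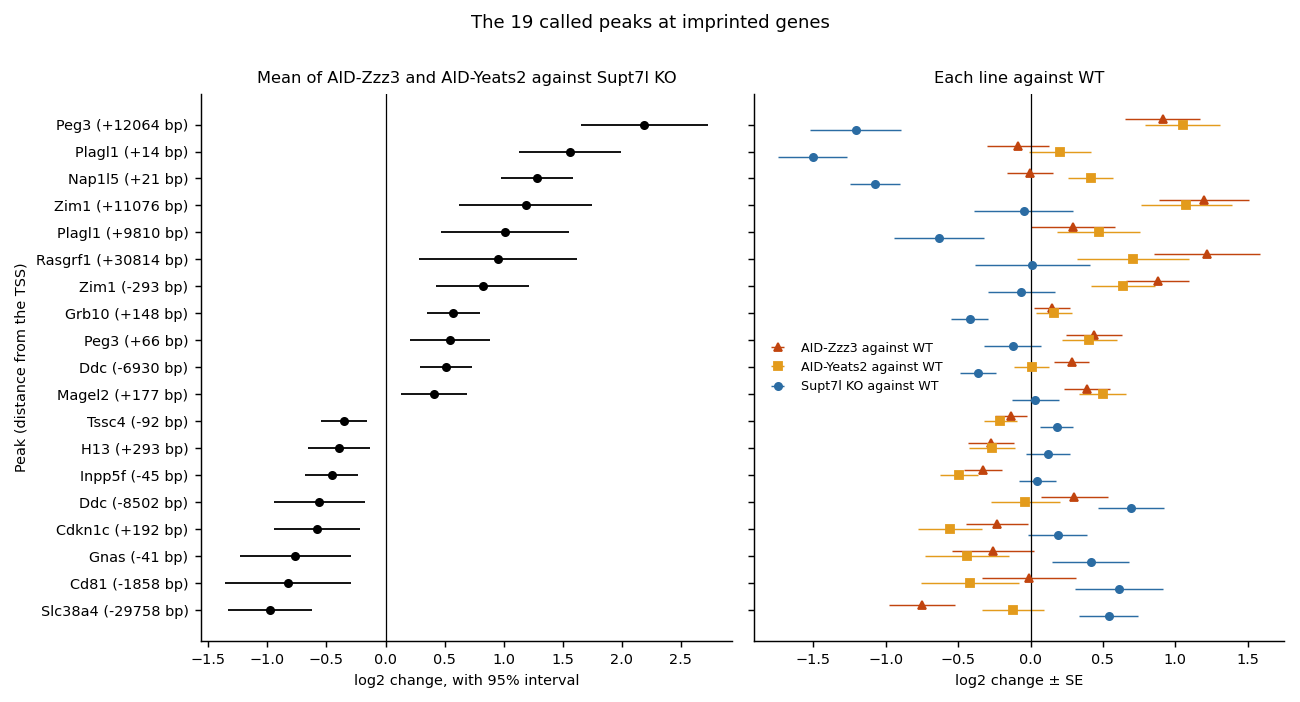
Left, the log2 difference between the mean of AID-Zzz3 and AID-Yeats2 and Supt7l KO cells (x axis) with its 95% interval, for the 19 member peaks called in that comparison (rows). Right, the log2 change of each line against WT with bars for 1 standard error at the same peaks; Nap1l5 +21 and Plagl1 +14 are lowest in Supt7l KO cells, at -1.08 and -1.51, while at Peg3 +12064 the lines lie on both sides of 0.

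The called peaks were also counted by the parent whose allele is expressed, by the usual direction of imprinting in mouse. The 27 peaks of Gnas, Grb10, Inpp5f, H13 and Ddc, listed as genes whose imprinting differs between promoters or tissues, were left out of both groups. All other genes were grouped whole, so either group can hold peaks that are not imprinted in ES cells. Ube3a, silenced on the paternal allele in neurons, was counted as maternal, and the Plagl1 peak at +595 as paternal. Commd1 +292, which also covers the paternally expressed Zrsr1, was counted as maternal here and below. Of the 57 peaks of 18 paternally expressed genes, 4 were lower in Supt7l KO (7.02%, against 1.09% of all tested peaks) and 1 was higher in AID-Yeats2 cells (1.75%, against 0.822%) against WT, and edgeR called 0 in AID-Zzz3 cells (9 at an unadjusted p under 0.05; DESeq2 called 1, higher). In the ATAC lines against Supt7l KO, 7 were higher and 1 was lower, together 14.0%. Of the 28 peaks of 12 maternally expressed genes, 2 were higher in AID-Zzz3 cells (7.14%, against 0.98% of all tested peaks), and edgeR and DESeq2 both called 0 in AID-Yeats2 (4 at an unadjusted p under 0.05) and 0 in Supt7l KO (3 at an unadjusted p under 0.05). In the ATAC lines against Supt7l KO, 2 were higher and 3 lower, together 17.9%. The shares in that comparison stood beside 17.6% of all tested peaks, and the difference between the groups of genes was not tested.

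At the 22 paternal promoter peaks the median log2 change against WT was -0.04 in AID-Zzz3, 0.21 in AID-Yeats2 and -0.08 in Supt7l KO cells. At the 15 maternal promoter peaks it was -0.22 in AID-Zzz3, -0.17 in AID-Yeats2 and 0.07 in Supt7l KO cells. Over all 18836 tested promoter peaks it was -0.11 in AID-Zzz3, -0.11 in AID-Yeats2 and 0.09 in Supt7l KO cells. The maternal medians had the sign of all promoters in every line, and the paternal ones had the opposite sign in AID-Yeats2 and Supt7l KO cells. With loess scaling the maternal median in Supt7l KO cells was -0.02, and the other medians kept their sign with loess scaling, DESeq2's size factors and library totals alone. By library, the paternal medians in Supt7l KO 1 to 4 lay -0.16, -0.13, 0.02 and 0.02 log2 units from the WT mean. Only libraries 1 and 2 thus had the sign opposite to all promoters. In AID-Yeats2 1 to 4 they lay 0.31, 0.05, 0.19 and 0.05 from it. The promoter peaks counted here share loci and WT libraries.

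At several paternally expressed genes the AID-Zzz3 libraries fell into a higher and a lower pair. This pattern was noticed in these libraries and is therefore given with no test. AID-Zzz3 libraries 1 and 3 were the 2 highest of the 4 AID-Zzz3 libraries at 13 of 22 paternal promoter peaks (59.1%), against 2 of 15 maternal promoter peaks (13.3%), 14.1% of all promoter peaks and 16.4% of all tested peaks. The 13 peaks belonged to 9 genes, Airn, Impact, Kcnq1ot1, Mest, Peg3, Plagl1, Sgce, Slc38a4 and Snrpn. At 7 of them the lower library of the one pair exceeded the higher library of the other by more than 0.5 log2 units.

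The Mest promoter at +214 (chr6:30737735-30738803), a paternally expressed hydrolase-like gene, measured 19.6, 5.78, 19.7 and 10.3 CPM in AID-Zzz3 libraries 1 to 4, against 14.2, 20.3, 11.2 and 21.5 CPM in WT libraries. In AID-Zzz3 the odd-numbered libraries were high and the even-numbered ones low, and the order was the reverse in WT. At Plagl1 +14 the same AID-Zzz3 libraries were high, with 49.3 and 41.1 CPM in 1 and 3 against 17.1 and 16.3 CPM in 2 and 4. The promoter of Airn, the antisense RNA that silences Igf2r, measured 20.3, 1.93, 14.6 and 3.00 CPM at +111 in AID-Zzz3, against 9.50, 6.24, 4.86 and 8.60 CPM in WT, and was named after its values were seen. Peg3 at +923 measured 45.3, 17.3, 31.2 and 20.5 CPM in AID-Zzz3, against 22.7, 25.4, 25.7 and 24.4 CPM in WT, also named afterwards. Kcnq1ot1 at +218, the promoter of the RNA that silences its cluster, measured 37.3, 24.3, 25.0 and 21 CPM in AID-Zzz3, against 26.8, 28.0, 26.4 and 28.4 CPM in WT, where the gap between the AID-Zzz3 pairs was small.

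The spread among the 4 libraries of a line was likewise widest at paternal promoters of AID-Zzz3. The median SD of log2 CPM over the 22 paternal promoter peaks was 0.44 in AID-Zzz3, 0.25 in AID-Yeats2, 0.34 in Supt7l KO and 0.19 in WT. Over the 15 maternal promoter peaks it was 0.22 in AID-Zzz3, 0.24 in AID-Yeats2, 0.20 in Supt7l KO and 0.20 in WT, and over all promoter peaks 0.24 in AID-Zzz3, 0.23 in AID-Yeats2, 0.23 in Supt7l KO and 0.20 in WT. Counting noise alone differs with the level, and the median levels were 18.7 CPM for the paternal, 28.7 CPM for the maternal and 19.6 CPM for all promoter peaks. Of all peaks above the median level, 0.135% had an SD in AID-Zzz3 as large as the 0.82 of Plagl1 +14, and 0.155% one as large as the 0.81 of Mest +214. Further wide spreads stood at Grb10 -171, an SD of 0.70 in AID-Zzz3 with 5.33, 12.5, 18.0 and 11.8 CPM, Peg10 +1797, a retrotransposon-derived gene, 0.62 in AID-Zzz3 with 24.3, 14.9, 19.7 and 8.75 CPM, and Slc38a4 +2718, 0.62 in Supt7l KO. In Supt7l KO, libraries 3 and 4 were the 2 highest at 10 of the 22 paternal promoter peaks (45.5%), against 18.9% of all promoter peaks.

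The shift of whole libraries was small beside these values. At the median paternal promoter peak the AID-Zzz3 libraries 1 to 4 lay 0.14, -0.27, 0.26 and -0.31 log2 units from the WT mean, at the median maternal one -0.13, -0.04, -0.21 and -0.10, and at the median of all promoter peaks -0.08, -0.04, -0.12 and -0.13. Medians of AID-Zzz3 over paternal promoters therefore average libraries above and below WT. The labels used here do not say whether the libraries of either pair share a clone or a day, and the part of either was not tested.

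**Figure D4:**
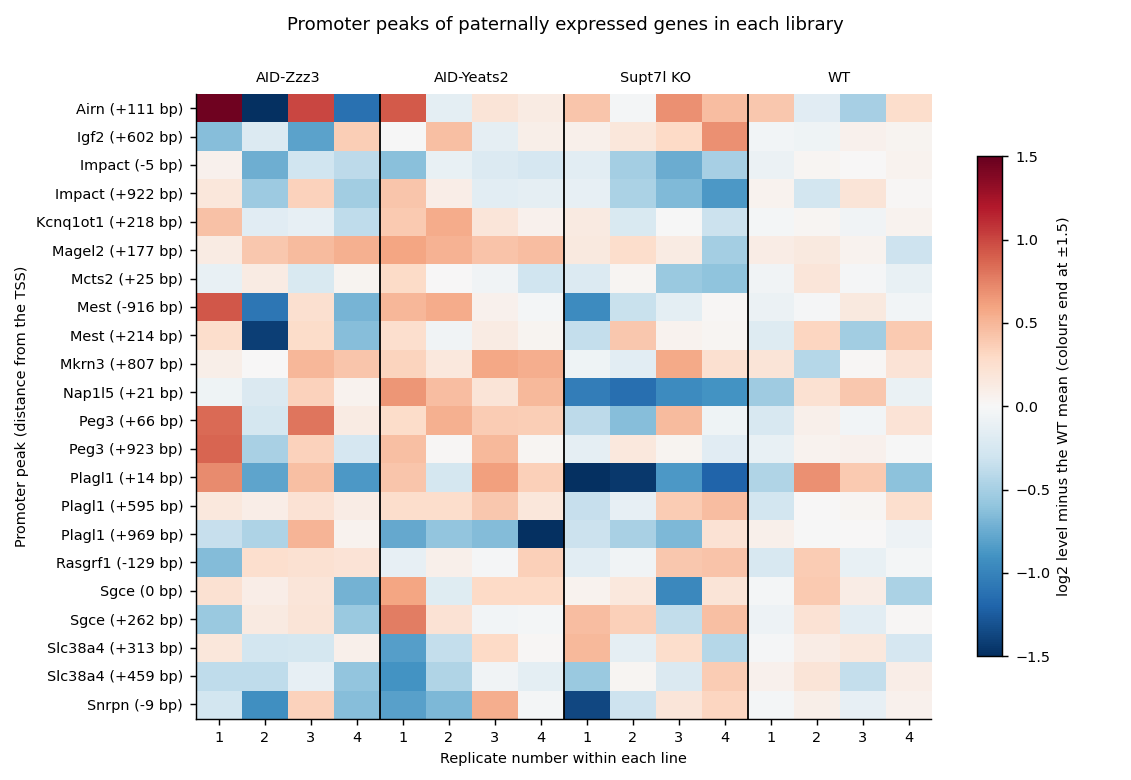
Log2 CPM minus the WT mean of the same peak (colour, ending at ±1.5) for the 22 promoter peaks of paternally expressed genes (rows) in the 16 libraries (columns, by line and library number). AID-Zzz3 columns 1 and 3 are mostly above and 2 and 4 mostly below the WT mean, with medians of 0.14, 0.26, -0.27 and -0.31.

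**Figure D5:**
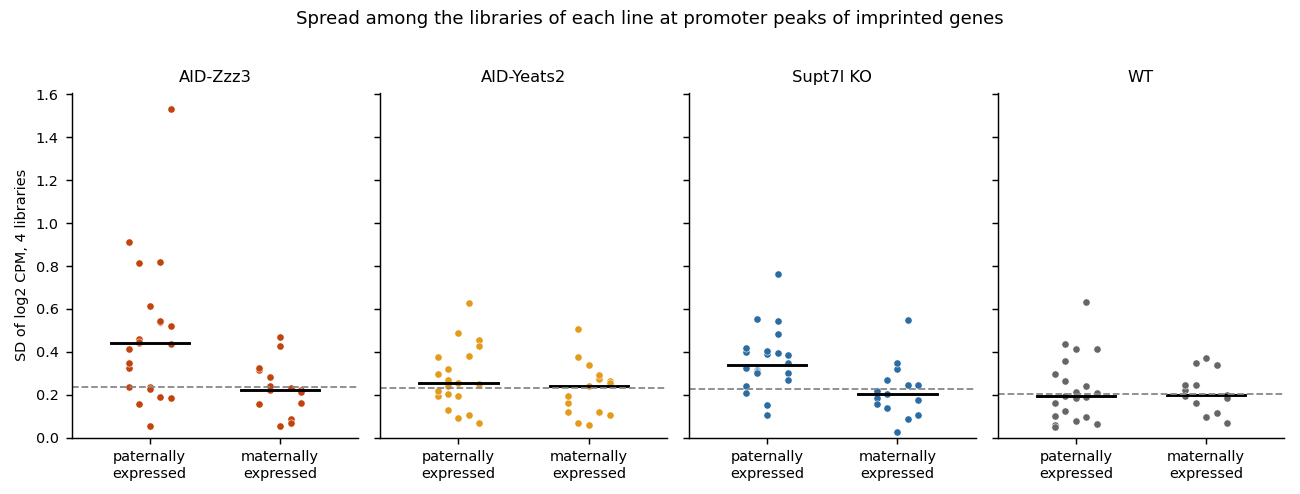
SD of log2 CPM over the 4 libraries of each line (y axis) at paternal and maternal promoter peaks; each point is a peak, the black bar is the median and the dashed line is the median of all promoter peaks of that line. The paternal median is 0.44 in AID-Zzz3 and 0.19 in WT, while the maternal medians lie between 0.20 and 0.24.

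The promoter peaks that represent the other loci, each the highest within 1000 bp of an annotated start site in its locus, showed no call against WT. Ube3a at +172, a ubiquitin ligase gene silenced on the paternal allele in neurons, stood at 95.2 ± 3.62 CPM in AID-Zzz3, 92.1 ± 3.83 CPM in AID-Yeats2, 107 ± 2.07 CPM in Supt7l KO and 102 ± 6.63 CPM in WT (SD, n = 4 each, here and in the next sentences). Igf2r at -12, the receptor that clears the growth factor Igf2, stood at 16.6 ± 4.41 CPM in AID-Zzz3, 21 ± 3.67 CPM in AID-Yeats2, 20.3 ± 4.28 CPM in Supt7l KO and 20.7 ± 5.68 CPM in WT. Igf2 itself, at +602, stood at 9.33 ± 3.75 CPM in AID-Zzz3, 12.1 ± 2.31 CPM in AID-Yeats2, 14.1 ± 2.87 CPM in Supt7l KO and 11.2 ± 0.511 CPM in WT. The lines overlapped at Igf2r and Igf2, and the log2 changes of the 3 peaks lay between -0.30 and 0.33.

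Among smaller loci, Mcts2 at +25, a retrogene within H13, stood at 29.4 ± 3.26 CPM in AID-Zzz3, 30.1 ± 5.12 CPM in AID-Yeats2, 24.2 ± 5.28 CPM in Supt7l KO and 30.2 ± 2.75 CPM in WT. Copg2 at +3, a coatomer subunit gene next to Mest, stood at 24.3 ± 4.82 CPM in AID-Zzz3, 27.1 ± 6.79 CPM in AID-Yeats2, 32.1 ± 4.57 CPM in Supt7l KO and 31.3 ± 8.41 CPM in WT. Impact at +922, which encodes a regulator of translation, stood at 16.4 ± 5.32 CPM in AID-Zzz3, 18.3 ± 3.65 CPM in AID-Yeats2, 12.1 ± 2.83 CPM in Supt7l KO and 17.5 ± 2.34 CPM in WT, with a log2 change in Supt7l KO of -0.53 (adjusted p = 0.235). None of these was called, and the libraries of each line overlapped those of WT.
Commd1 at +292, a gene of copper and endosome trafficking, stood at 27.8 ± 4.07 CPM in AID-Zzz3, 34.9 ± 2.54 CPM in AID-Yeats2, 28.6 ± 2.1 CPM in Supt7l KO and 35.7 ± 4.92 CPM in WT, with log2 changes of -0.36 in AID-Zzz3, -0.03 in AID-Yeats2 and -0.32 in Supt7l KO. By the RefSeq annotation this peak also covers the paternally expressed retrogene Zrsr1, so reads from Zrsr1 are counted under Commd1. Gnas at +41, over an annotated start site of its locus, stood at 15.2 ± 1.63 CPM in AID-Zzz3 and 15.3 ± 1.53 CPM in AID-Yeats2. It stood at 18.1 ± 1.93 CPM in Supt7l KO and 18.3 ± 3.24 CPM in WT. Sgce at 0, a sarcoglycan gene whose peak also covers the Peg10 start on the other strand, stood at 10.1 ± 2.77 CPM in AID-Zzz3, 12.3 ± 2.71 CPM in AID-Yeats2, 9.60 ± 3.15 CPM in Supt7l KO and 10.4 ± 2.59 CPM in WT. The Ddc peak at +564 lay in intron 11 of 14 of a transcript, and no RefSeq promoter window of Ddc lay under it. It stood at 57.8 ± 6.82 CPM in AID-Zzz3, 59.3 ± 11.8 CPM in AID-Yeats2, 58.3 ± 4.38 CPM in Supt7l KO and 60.9 ± 9.24 CPM in WT. Slc38a4 at +459 stood at 18.6 ± 2.55 CPM in AID-Zzz3, 18.8 ± 4.72 CPM in AID-Yeats2, 23.2 ± 6.49 CPM in Supt7l KO and 24.3 ± 3.86 CPM in WT. Against WT the log2 changes of these 5 peaks lay between -0.38 and 0.22.

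Other genes linked to imprinting gave few calls. Of 97 peaks of 26 genes whose products keep or read imprints, such as the DNA methyltransferases, 1 was called in AID-Zzz3 cells (1.03%, against 0.98% of all). It was a peak at +27236 of Zfp42, a zinc finger gene related to YY1, with 13.9 ± 4.63 CPM in AID-Zzz3 and 7.42 ± 0.361 CPM in WT (SD, n = 4 each; log2 change 0.90, adjusted p = 0.0445). For the other 2 lines edgeR called 0 of these peaks, with 12 in AID-Yeats2 and 9 in Supt7l KO at an unadjusted p under 0.05, and DESeq2 called 1 in AID-Yeats2 and 0 in Supt7l KO.

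Of 80 tested peaks of 27 further imprinted genes, 1 was called higher in AID-Yeats2 cells (1.25%, against 0.822% of all called). It was a peak at +15356 of Pde10a, a phosphodiesterase gene, with 19.1 ± 1.31 CPM in AID-Yeats2 and 10.2 ± 3.26 CPM in WT (SD, n = 4 each; log2 change 0.91, adjusted p = 0.0215). In AID-Zzz3 and Supt7l KO cells edgeR and DESeq2 called 0 of them, with 3 in AID-Zzz3 and 2 in Supt7l KO at an unadjusted p under 0.05. In the ATAC lines against Supt7l KO, 4 peaks of the first list were higher and 8 lower (12.4%), and 3 of the second were higher and 5 lower (10.0%), against 17.6% of all tested peaks.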

How the data were processed

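The deposited table lists, for every peak, raw read counts per library, an annotation to the nearest gene and the authors' log2 fold changes and p-values. The submitters' processing notes name the build mm10 and, with no role or order, bedtools 2.26.0, DESeq2 1.16.1, HOMER, MACS2 2.1.1.20160309, Bowtie2 2.2.6 and bcl2fastq 2.17.1.14. Filters on duplicates, shifting of reads for Tn5 and pooling before peak calling are not given in the sources used here. The deposited counts of 16 libraries were used, and 16 further per-sample columns of normalised values were not used. The authors' deposited log2 fold changes and adjusted p-values are quoted only where named as theirs. The name of their table holds the words batch and day, so their model may differ from the main fit, which held no batch term.

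Groups were taken from the genotype labels. Peaks were filtered with edgeR's filterByExpr (458 removed, 69692 kept), scaled by TMM and tested in one fit of 4 groups by the two-sided quasi-likelihood F test of edgeR 4.0.16 (R 4.3.3, limma 3.58.1), with Benjamini-Hochberg adjustment over all tested peaks within each of 4 comparisons and a call at an adjusted p under 0.05. SE is the log2 change divided by the root of F. Levels are CPM, and log2 CPM used a prior count of 2. A promoter peak lies within 1000 bp of a start site. Peaks of 2 genes that overlap cannot be divided between them. The fit was tested on simulated data.

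Named peaks are all those called in any comparison, the highest promoter peak of each locus, the 3 higher and 3 lower peaks with the smallest p per comparison, and the 5 peaks above the median level with the widest spread within a line; others are said to be named after their values were seen, or appear because they belong to the same gene as a named peak. The members, the gene lists and these rules were chosen with earlier results of these data known. Alternatives were DESeq2 1.42.0, other scalings, filters, thresholds and promoter windows, replicate terms, subsets of libraries and leaving out each library. RefSeq promoter sequences are from GRCm38.p6; cells of line E14 can differ from that reference.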

Additional observations from a re-analysis of the deposited data

Results flagged for a closer look

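Over the 42 named peaks, 9 of 168 groups of 4 libraries held 1 library far from the other 3 by Dixon's test at the 95% level, and chance gives about 1 in 20 groups. In AID-Zzz3, library 1 was lowest at Gnas -41 with 4.33 CPM (the others 6.25 to 6.47 CPM) and at Rasgrf1 -129 with 19 CPM (the others 35.0 to 36.1 CPM). AID-Zzz3 library 2 was highest at Ddc -6930 with 56.1 CPM (the others 50.3 to 50.7 CPM) and at Rasgrf1 +30814 with 7.23 CPM (the others 4.99 to 5.35 CPM). AID-Yeats2 library 3 was lowest at Cdkn1c +192 with 7.14 CPM (the others 11.3 to 11.9 CPM). In Supt7l KO, library 4 was lowest at Cd81 -1858 with 3.59 CPM (the others 9.08 to 10.1 CPM) and library 3 at Sgce 0 with 4.92 CPM (the others 10.5 to 11.6 CPM). In WT, library 3 was highest at Cdkn1c +192 with 17.1 CPM (the others 14.8 to 15.1 CPM) and library 1 lowest at Rasgrf1 +30814 with 0.931 CPM (the others 2.87 to 3.24 CPM). None of these is at Plagl1, Nap1l5, Peg3 or Zim1.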

How the results depend on the processing

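No called change of a named peak reversed its direction under any alternative run. The number of member peaks called in AID-Zzz3 against WT (2) became 5 at an adjusted p under 0.10, 0 under 0.01, and 0 with libraries 1 and 2 or 3 and 4 alone. In AID-Yeats2 against WT (2) it became 4 at 0.10, 0 at 0.01, 1 with library totals alone, 0 with loess scaling, and 0 within either pair of libraries. In Supt7l KO against WT (4) it became 2 under 0.01 and 2 within either pair. In the ATAC lines against Supt7l KO (19) it became 34 at 0.10, 11 at 0.01 and 9 with libraries 1 and 2 alone. Of all tested peaks, libraries 1 and 2 alone called 6.50% in that comparison. They called 0.0359% in AID-Zzz3, 0.0316% in AID-Yeats2 and 0.166% in Supt7l KO against WT. Libraries 3 and 4 alone called 0.606% in AID-Zzz3, 0.187% in AID-Yeats2 and 0.499% in Supt7l KO against WT. Leaving out single libraries gave 0 to 4 in AID-Zzz3, 0 to 1 in AID-Yeats2, 2 to 5 in Supt7l KO and 14 to 22 in the last comparison. The share of all tested peaks called then moved as well. It was 0.322% to 1.34% in AID-Zzz3, 0.239% to 0.685% in AID-Yeats2, 0.236% to 1.33% in Supt7l KO and 12.1% to 18.1% in the last comparison. The causes were not tested. The groups share library numbers, which the labels do not tie to a day or culture; the correlations of same-numbered libraries' deviations were 0.0163 to 0.111, so the numbers were not treated as pairs. Every library pair from the same set (1 and 2, or 3 and 4) had a positive correlation, 0.0231 to 0.103 with different numbers, and every pair across sets a negative one, -0.109 to -0.0167. With the number as a replicate block the calls were 3 in AID-Zzz3, 4 in AID-Yeats2, 5 in Supt7l KO and 23 in the last comparison (by replicate set, 3, 4, 5 and 24). Over all peaks the set block called 1289 in AID-Zzz3 (683 without), 1203 in AID-Yeats2 (573 without) and 1182 in Supt7l KO (757 without). Both blocks called Zim1 +11076 in AID-Yeats2 (adjusted p = 0.0367 and 0.0408) and Peg3 +12064 in AID-Zzz3 (0.0415 and 0.0401), and the set block Plagl1 +969 in AID-Yeats2 (0.04995). Of the repeats for named peaks, 640 kept their side of the threshold, 110 lost a call and 10 gained one. At Peg3 +12064 the Supt7l KO libraries held 8 to 13 reads each.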
